A study of Mus musculus with 35 samples.

Results

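Canonical Polycomb repressive complex 1 (PRC1) was followed through 9 of its subunit genes: Cbx2, Cbx6, Cbx7, Cbx8, Phc1, Phc2, Phc3, Pcgf2 and Bmi1. They were taken by gene name from a table of 21350 genes in 35 mouse RNA sequencing libraries. No measured value entered this rule, but the members were chosen with earlier results of these data known. All 9 passed the low-value filter and were among the 13860 genes tested. The least expressed on this filter was Cbx7, with a value of at least 10 in 20 of the 27 libraries of the model.

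PRC1 places ubiquitin on histone H2A through a RING1 or RNF2 subunit paired with a PCGF protein, and it helps to keep developmental genes silent. In the canonical form the PCGF position is held by Pcgf2 (Mel18) or Bmi1 (Pcgf4). A CBX subunit reads the trimethyl mark that PRC2 leaves on histone H3, and a PHC subunit polymerises through its SAM domain and draws marked regions together. Variant PRC1 carries RYBP or YAF2 instead of CBX and PHC, and one such complex is brought to CpG islands by Kdm2b. In mouse embryonic stem cells Cbx7 is the best known CBX subunit, and other CBX proteins replace it as cells differentiate. Bmi1 is known for silencing the Ink4 locus in fibroblasts.

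The study's title and design text concern reprogramming of somatic cells with Oct4 and Kdm2b. All reprogramming cells were infected with factors and grown in iCD1 reprogramming medium, and the factor combinations are labelled ODR, OA and OB at days 1, 6 and 14, and ODDR and ODB at day 9. What the letters stand for is not spelled out, and the labels give neither the strain or age of the starting cells nor the vector or its promoter. BMP4, a growth factor, was added at 10 ng/ml from the change to iCD1 in ODR and OB cultures sampled at day 6 and in 2 day 9 cultures, and the other cultures received none. An embryonic stem cell (mESC) library and an embryonic fibroblast (MEF) library serve as references, with no replicate. At day 1 the model held 2 libraries of each combination, and at day 14 it held 3 of each. At day 6 it held 2 of ODR, 3 of OA and 4 of OB, beside 1 of ODR and 2 of OB that received BMP4.

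The labels were checked on the factors themselves. Pou5f1 (Oct4) stood at the table's ceiling of 18690 in every reprogramming library of the model outside OB day 14, where its lowest value was 7086. Kdm2b was at the ceiling in the OB libraries without BMP4 at days 1 and 6 and was 5031 ± 1072 (SD, n = 3) in OB at day 14, against 262 ± 41.6 (SD, n = 3) in ODR. Kdm2a was at the ceiling in the OA libraries with 2 exceptions. OA day 1 replicate 2 had 9294, and the library labelled OA day 14 replicate 2 had 721, within the range of the ODR and OB libraries (686 to 1254). Calls of members in comparisons with OA at day 14 are therefore given with and without it. Shares of all genes, marker sums, correlations and lists of other Polycomb genes are given only with it. One day 6 library is deposited with identical values as ODR replicate 3 and as ODR with BMP4 replicate 2, and was used under neither label. One day 9 library likewise appears under both BMP4 labels of that day. Pluripotency markers (10 genes) summed to 22179 in mESC and 16 in MEF, and fibroblast markers (10 genes) to 5360 and 60980. Nothing in the labels says whether replicates are separate cultures. The p-values below therefore reflect only how far libraries of a group differ, and that spread may be technical. In bulk samples such as these, fewer cells of a type and less RNA per cell cannot be told apart.

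The 9 genes lie on 6 chromosomes of GRCm38 (mm10). Cbx2 (ENSMUSG00000025577, chr11:119022962-119031270, plus strand) and Cbx8 (ENSMUSG00000025578, chr11:119036305-119040969, minus strand) are neighbours 5034 bases apart. Cbx6 (ENSMUSG00000089715, chr15:79823896-79834688) and Cbx7 (ENSMUSG00000053411, chr15:79915807-79971119), both on the minus strand, are 81118 bases apart. Cbx6 shares 10342 bases with Npcd on the same strand, so the split of reads between them is uncertain, and Npcd was listed at 0 to 8 in the day 6 and day 14 ODR and OB libraries. Phc1 (ENSMUSG00000040669) lies at chr6:122317731-122340561, Phc2 (ENSMUSG00000028796) at chr4:128654702-128752881 and Phc3 (ENSMUSG00000037652) at chr3:30899371-30969415. Pcgf2 (ENSMUSG00000018537) lies at chr11:97688823-97700497 and Bmi1 (ENSMUSG00000026739) at chr2:18677018-18686629.

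The 250 bases before the RefSeq transcription start (GRCm38.p6) were read for the 8 of 9 members that have an entry, 10 windows in all because Phc2 has 3. They were searched on both strands for 3 motifs: CACGTG (an E-box, its own reverse complement), GGCGGGAA (an E2F motif) and ATGCAAAT (an octamer motif). The E-box was found in 6 of the 10 windows, those of Cbx6, Cbx8, Phc2, Phc3, Pcgf2 and Bmi1, and in 6.02% of all 32851 windows of this length. Among the 18260 windows with at least 5 CpG dinucleotides, the lowest number in these 6, the share was 8.58%. GGCGGGAA was in none of the 10 windows (1.86% of all) and ATGCAAAT was in 1, a Phc2 window (1.6% of all). The 5 E-box stretches that overlap no annotated exon are shown because this 6-base sequence is what most of these windows share. They are in lower case with the E-box in capitals, 5′ to 3′ along the gene's strand, from RefSeq: Bmi1 at chr2:18676791-18676820, Phc3 at chr3:30969480-30969509, Phc2 at chr4:128654633-128654662, Pcgf2 at chr11:97699768-97699797 and Cbx8 at chr11:119040994-119041023.
Bmi1: gaatgaggggagCACGTGacccggcggggg
Phc3: agtcgctggcctCACGTGacctctgcgccc
Phc2: ggctggagtgggCACGTGacactctccggt
Pcgf2: aaggaatgaggtCACGTGggtgagtagtgg
Cbx8: cgtcgttagcaaCACGTGgggcgggaggaa
The E-box began 215 bases before the RefSeq start in Bmi1, 82 in Phc3, 57 in Phc2, 137 in Pcgf2, 98 in Cbx8 and 26 in Cbx6. The Pcgf2 window begins at an internal start, since GENCODE places its first start 849 bases further upstream. GENCODE also places first starts upstream in Cbx6 (355 bases) and Cbx8 (56 bases). The windows of Cbx7 and Phc1 lie inside the annotated genes, whose 5′ ends are at chr15:79971119 and chr6:122340561. The whole 250-base window of Bmi1 (chr2:18676768-18677017, plus strand) ends at the base before its GENCODE start, overlaps no annotated exon and holds 21 CpG dinucleotides, a count reached by 16.3% of all windows; it is shown as the most CpG-rich of these windows that is free of exons and holds the E-box.
Bmi1 window: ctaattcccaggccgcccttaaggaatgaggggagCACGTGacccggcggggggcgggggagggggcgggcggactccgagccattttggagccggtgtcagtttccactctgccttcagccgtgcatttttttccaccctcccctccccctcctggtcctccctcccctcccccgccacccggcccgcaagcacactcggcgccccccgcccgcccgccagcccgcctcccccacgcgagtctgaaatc
The other windows held 22 CpG in Cbx8, 20 in Cbx6, 12 in Phc3 and 5 in Pcgf2, and 13, 1 and 34 in the 3 Phc2 windows. The windows of Cbx7 and Phc1, with 23 and 8 CpG, had none of the 3 motifs. The members with the E-box included genes that rose, fell and did not pass the test at day 14 below.

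The largest difference tested in these genes, that of Cbx2, came late and in 1 combination. Cbx6 and Bmi1 also rose early in every combination, as described below. At day 14, Cbx2, Phc1 and Pcgf2 were higher in OB than in ODR, and Cbx6, Bmi1 and Cbx8 were lower. The other 3 members, Cbx7, Phc2 and Phc3, did not pass the test. Of all genes tested, 28% were called higher and 26.7% lower in this comparison, so 3 of 9 members in each direction is close to the share among all genes. The median log2 difference was -0.22 over the 9 members and 0.01 over all genes tested. All differences are on the log2(value + 1) scale with standard errors from limma, and a call means an adjusted p below 0.05, with adjustment over the whole table of tested genes.

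**Figure D1:**
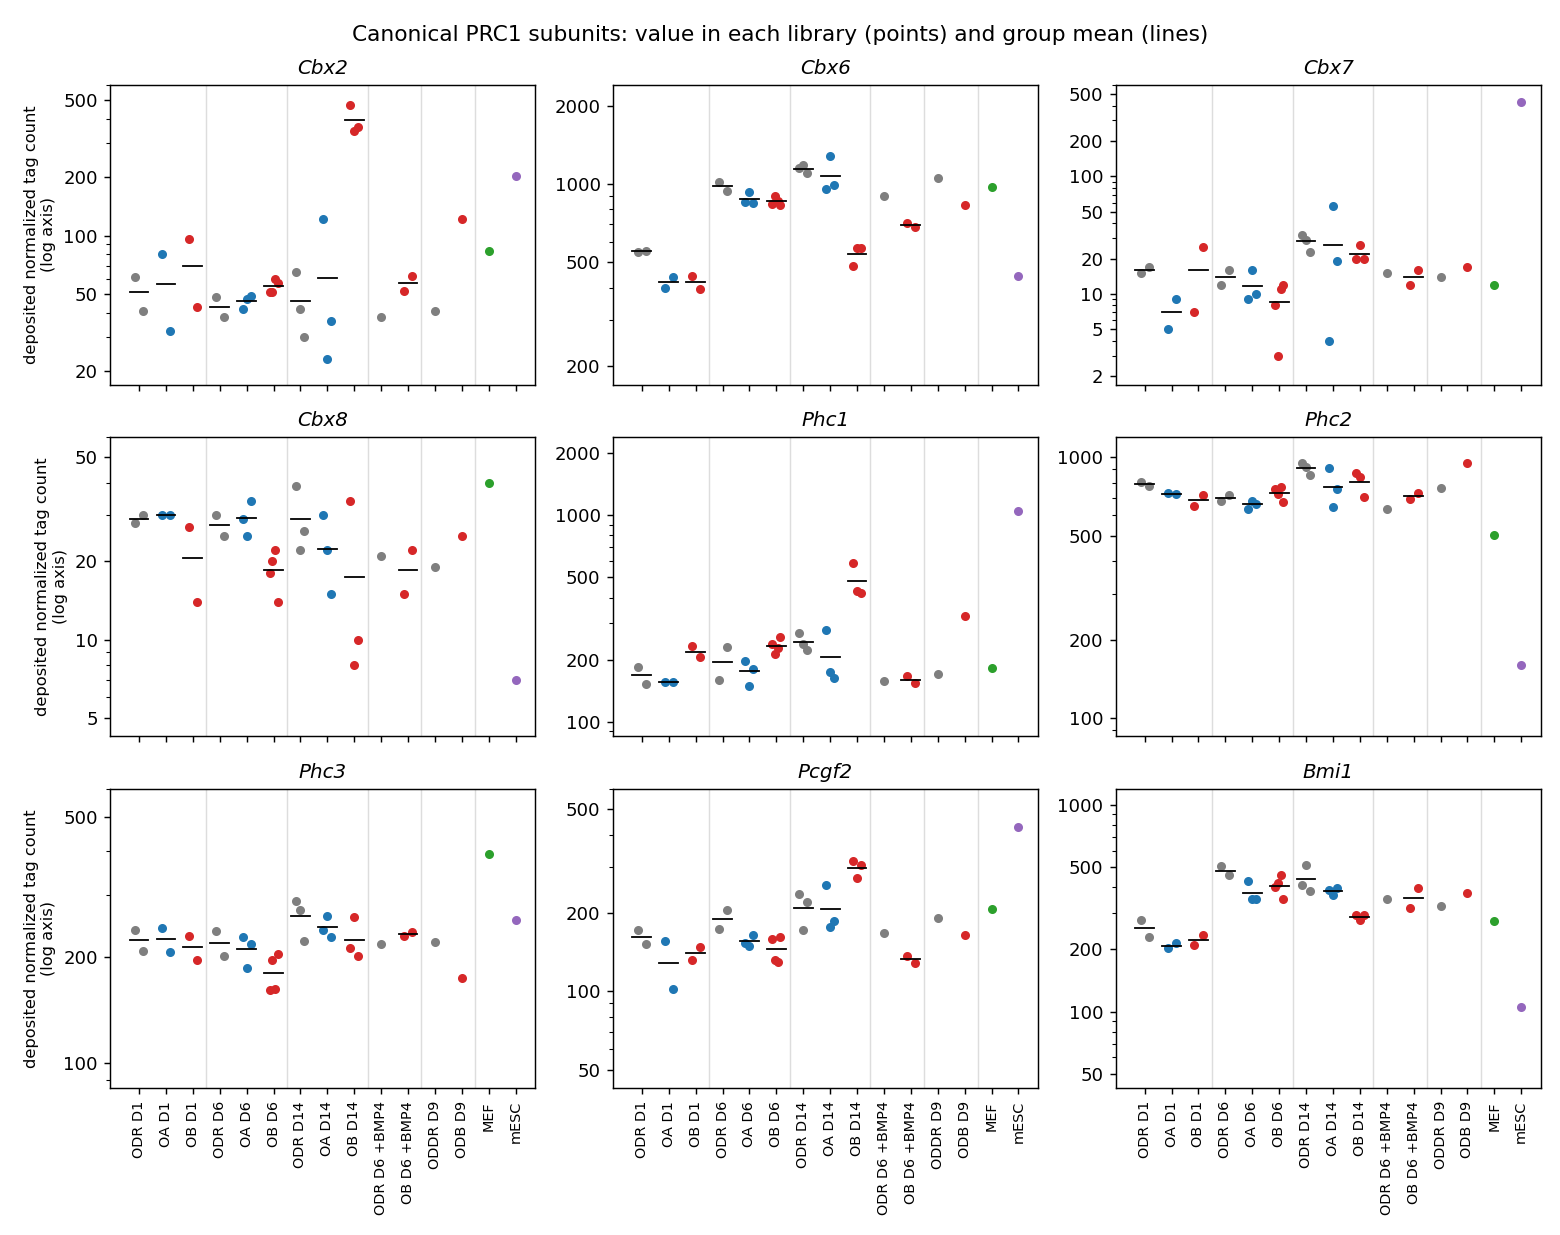
Deposited normalized tag count of each member (log axis) in each library (points) of the ODR and ODDR (grey), OA (blue), OB and ODB (red), MEF (green) and mESC (purple) groups, with group means as lines; the libraries deposited under 2 labels are left out. Cbx2 lies at 345 to 472 in OB at day 14 and at 23 to 122 in the other 24 libraries of the model.

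Among the CBX genes, Cbx2, whose protein compacts nucleosomes as well as reading the trimethyl mark, changed most. Its values at day 14 were 472, 345 and 364 in OB, 65, 42 and 30 in ODR, and 122, 23 and 36 in OA. The OB libraries did not overlap with either of the others. The OB minus ODR difference was 3.14 ± 0.46 (adjusted p = 1.53e-05), which is 8.82-fold on this scale, and the OB minus OA difference was 3.03 ± 0.46 (adjusted p = 2.77e-05). Without the library labelled OA day 14 replicate 2, the latter was 2.54 ± 0.45 (adjusted p = 0.000174). Up to day 6 the gene was low in every combination, at 51, 51, 60 and 57 in OB at day 6 and at 48 and 38 in ODR. The rise in OB from day 6 to day 14 was 2.81 ± 0.43 (adjusted p = 2.55e-05). Over the 11 groups of the model, OB day 14 was the only one separate from the next in the order of means, which ran from 394 there to 69.5 in OB day 1 and 38 in the ODR library with BMP4.

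Cbx6 moved the other way. Its protein is a less studied CBX subunit, with weak binding to the trimethyl mark. Values at day 14 were 486, 567 and 569 in OB, 1148, 1184 and 1106 in ODR, and 960, 1281 and 990 in OA. Again the OB libraries were apart from both. The difference was -1.09 ± 0.10 against ODR (adjusted p = 1.29e-07) and -0.98 ± 0.10 against OA (adjusted p = 6.23e-07). Unlike Cbx2, Cbx6 had already changed by day 6. Day 1 values were 550 and 553 in ODR, 400 and 441 in OA, and 442 and 397 in OB. Day 6 values were 1018 and 941 in ODR, 852, 935 and 848 in OA, and 836, 902, 863 and 829 in OB. Each combination thus rose between days 1 and 6 with no overlap, and OB then fell by 0.67 ± 0.10 on the log2 scale to day 14 (adjusted p = 1.36e-05). At day 14, Cbx6 in OB was near its level in ODR at day 1, with a mean of 541 against 552, and the libraries of these 2 groups overlapped in range. Within OB, the day 14 libraries were all above those of day 1 (442 and 397).

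Cbx8, the member next to Cbx2 on chromosome 11, was low throughout, at 8 to 39 over the 27 libraries. At day 14 it read 34, 8 and 10 in OB and 39, 22 and 26 in ODR, so the ranges overlapped. The OB minus ODR difference of -0.95 ± 0.39 was called by a narrow margin (adjusted p = 0.0459). The call was lost when any of 16 of the 27 libraries was left out. It was also lost with a pseudocount of 10, with no low-value filter and in the limma fit of only the groups compared (adjusted p up to 0.173). Over all 27 left-out libraries the difference ranged from -1.55 to -0.57 and the adjusted p from 0.000405 to 0.242. The OB minus OA difference was -0.57 ± 0.39 (adjusted p = 0.23). With 1 library left out it ranged from -1.18 to -0.20 (adjusted p 0.00423 to 0.715), and it was called only without OB day 14 replicate 1, the library with 34. Cbx8 was thus not called higher in OB where its neighbour Cbx2 was.

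Cbx7, the stem cell CBX gene, stayed low in all reprogramming libraries. Its values ranged from 3 to 56 in the model, with 20, 26 and 20 in OB, 32, 29 and 23 in ODR, and 4, 56 and 19 in OA at day 14. The OB minus ODR difference was -0.33 ± 0.63 (adjusted p = 0.68), with a 95% interval of -1.66 to 1.00. Within OB the values were 8, 3, 11 and 12 at day 6, below all 3 day 14 libraries, and the difference of 1.40 ± 0.59 missed the threshold narrowly (adjusted p = 0.0513). It passed without any of 6 libraries and in 6 other alternatives, among them the fit of only the groups compared (adjusted p = 0.0181). Over left-out libraries it ranged from 1.03 to 1.60 (adjusted p 0.0113 to 0.159). At values this low the log2(value + 1) scale understates a change. The mESC library had 429.

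Of the PHC genes, only Phc1 was called at day 14 against ODR or OA. Phc1 read 587, 429 and 422 in OB, 268, 237 and 222 in ODR, and 278, 174 and 163 in OA. All 3 OB libraries were above every other library of the model, whose highest value was 278. The difference was 0.97 ± 0.19 against ODR (adjusted p = 0.000262) and 1.25 ± 0.19 against OA (adjusted p = 2.64e-05). From day 6 to day 14 in OB the gene rose by 1.02 ± 0.17 (adjusted p = 8.92e-05), from values of 237, 213, 229 and 257.

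Phc2 and Phc3, the other polyhomeotic genes, varied little. Phc2 read 868, 841 and 708 in OB, 951, 922 and 856 in ODR, and 908, 643 and 754 in OA at day 14, and these ranges overlapped. Its OB minus ODR difference was -0.18 ± 0.11 (adjusted p = 0.172), with a 95% interval of -0.41 to 0.05. Its group means spanned a ratio of 1.43 over the 11 groups, and no neighbours in their order were separate. Phc3 spanned 1.44 in the same way, and read 212, 259 and 202 in OB against 288, 272 and 222 in ODR at day 14. Its OB minus ODR difference was -0.22 ± 0.14 (adjusted p = 0.191). The day 6 to day 14 change of Phc3 in OB was 0.31 ± 0.13 and passed the threshold narrowly (adjusted p = 0.0467). The values behind it overlapped, at 161, 196, 162 and 204 against the day 14 values above. That call was lost without any of 12 libraries, and its adjusted p ranged from 0.0279 to 0.236. It was also lost with no low-value filter and in the limma fit of only the groups compared (adjusted p up to 0.0949).

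The PCGF pair moved in opposite directions. Pcgf2 read 318, 272 and 307 in OB, 236, 172 and 220 in ODR, and 257, 176 and 186 in OA at day 14. The OB libraries were above all others, by a small margin over the highest OA library. The difference was 0.52 ± 0.17 against ODR (adjusted p = 0.0128) and 0.55 ± 0.17 against OA (adjusted p = 0.01). The call against ODR was lost without ODR day 14 replicate 2, at an adjusted p of 0.0801, and the range over left-out libraries was 0.0067 to 0.0801. The call against OA was lost in the limma fit of only the groups compared, at an adjusted p of 0.0674. Within OB, Pcgf2 rose from 159, 132, 130 and 162 at day 6, by 1.04 ± 0.16 (adjusted p = 2.28e-05). Bmi1 read 294, 278 and 292 in OB, 412, 513 and 384 in ODR, and 387, 366 and 395 in OA at day 14. The OB libraries were below all of these and close to each other. The difference was -0.59 ± 0.13 against ODR (adjusted p = 0.000792) and -0.41 ± 0.13 against OA (adjusted p = 0.0124). Within OB, Bmi1 fell by 0.49 ± 0.12 from its day 6 values of 400, 418, 460 and 352 (adjusted p = 0.00197).

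**Figure D2:**
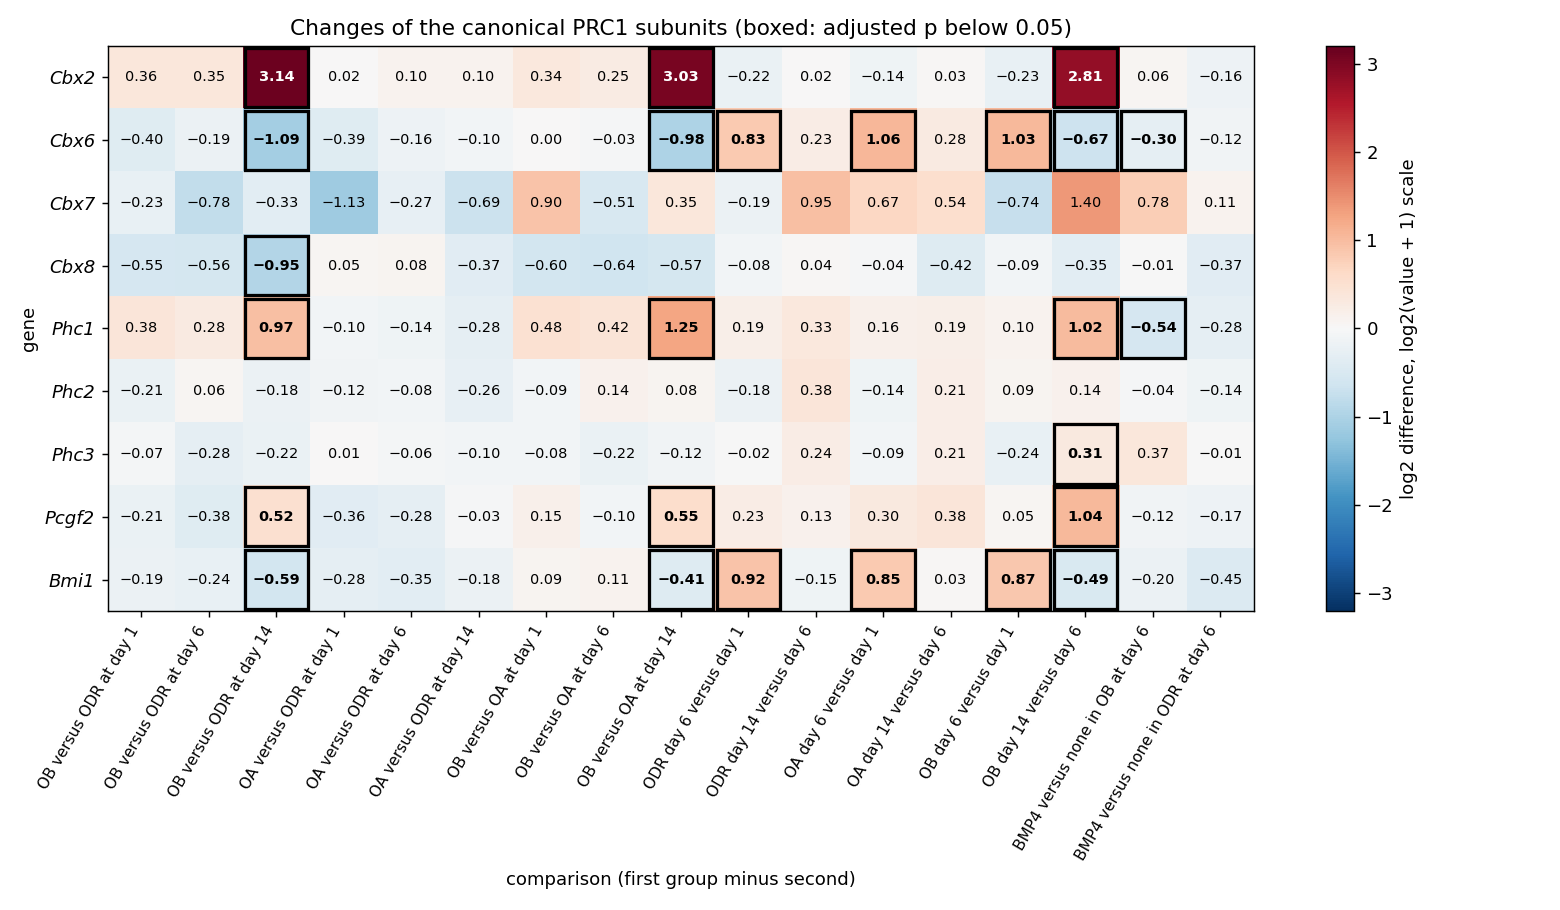
Log2 difference (first group minus second) of each member in the 17 comparisons of 2 groups, with colour for size and sign and a box where the adjusted p was below 0.05. The boxes gather in 3 columns of OB at day 14 (against ODR, against OA and against day 6) and in the day 6 against day 1 columns of Cbx6 and Bmi1.

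Against OA at day 14, 3 of 9 members were called higher (26.5% of all genes tested) and 2 lower (25.2%). Without the library labelled OA day 14 replicate 2 the same 5 members were called. Beside Cbx2 above, the differences were then -0.85 ± 0.09 for Cbx6 (adjusted p = 1.49e-06), 1.15 ± 0.21 for Phc1 (adjusted p = 0.000199) and -0.44 ± 0.14 for Bmi1 (adjusted p = 0.0166). Pcgf2 was at 0.45 ± 0.18 (adjusted p = 0.0477), and Cbx8 at -0.56 ± 0.44 was again not called (adjusted p = 0.311). From day 6 to day 14 in OB, 4 were called higher (26.8% of all) and 2 lower (28.2%). The members' counts in both comparisons stand near the shares of all genes. Cbx2 had the largest difference among the members in each.

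The change after day 6 was also compared between combinations. The day 6 to day 14 change in OB minus that in ODR was 2.79 ± 0.67 for Cbx2 (adjusted p = 0.00351), 0.90 ± 0.24 for Pcgf2 (adjusted p = 0.00761) and -0.89 ± 0.15 for Cbx6 (adjusted p = 0.000214). That is 2 of 9 members higher (18.3% of all genes) and 1 lower (17.2%). The call of Pcgf2 was lost without ODR day 6 replicate 2 (0.78 ± 0.28, adjusted p = 0.0509). For Pcgf2 the OB minus ODR difference was -0.38 ± 0.18 at day 6 and 0.52 ± 0.17 at day 14, so a lower OB level at day 6 enters it. For Bmi1 the difference was -0.35 ± 0.19 and did not pass the test (adjusted p = 0.16). For Phc1 it was 0.69 ± 0.27 and missed the threshold narrowly (adjusted p = 0.058). Phc1 passed without any 1 of 4 libraries, with a pseudocount of 10, with limma's trend and robust options and in the fit of only the groups compared, and over left-out libraries it ranged from 0.43 to 0.95 (adjusted p 0.0226 to 0.323). Against OA the same difference was called for 3 members higher (16.9% of all) and 2 lower (15.9%). It was 2.79 ± 0.63 for Cbx2 (adjusted p = 0.00262), 0.83 ± 0.26 for Phc1 (adjusted p = 0.0191) and 0.65 ± 0.23 for Pcgf2 (adjusted p = 0.0349). It was -0.95 ± 0.14 for Cbx6 (adjusted p = 0.000113) and -0.52 ± 0.18 for Bmi1 (adjusted p = 0.0294). The calls of Cbx2 and Cbx6 held in all 36 alternatives. That of Pcgf2 was lost without any of 8 libraries (adjusted p up to 0.0819), that of Bmi1 without any of 5 (up to 0.07) and with the shared library kept as ODR with BMP4, and that of Phc1 without any of 3 (up to 0.0644) and in the fit of only the groups compared. Without the library labelled OA day 14 replicate 2, Cbx2 was at 2.29 ± 0.59 (adjusted p = 0.00617), Cbx6 at -0.82 ± 0.12 (adjusted p = 0.00012) and Phc1 at 0.73 ± 0.27 (adjusted p = 0.0435). Bmi1 was then at -0.55 ± 0.19 (adjusted p = 0.0299), and Pcgf2 was no longer called (0.55 ± 0.24, adjusted p = 0.0795). The OB libraries enter both differences, which are therefore not independent.

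Cell type and growth markers moved with OB at day 14. All 6 proliferation markers were called higher in OB than in ODR, and their sum was 8837 to 11145 in OB, 2465 to 2807 in ODR, 2628 to 4398 in OA, 12690 in mESC and 2414 in MEF. Of the 10 pluripotency markers, 5 were tested and Lin28a, Sall4 and Utf1 were called higher in OB than in ODR. All 10 summed to 1102 to 1200 in OB, 112 to 122 in ODR and 480 to 667 in OA. Much of the OB sum was Lin28a, at 632 to 742 in OB but 57 in mESC. Sall4 was 292 to 346 in OB and 1310 in mESC, and Utf1 was low, at 6 to 8 and 79. Against OA, 3 of the 5 were called higher and 1 lower, and Tfcp2l1 was 95 to 194 in OB and 339 to 525 in OA. The defining markers Nanog and Zfp42 were at most 6 and 2 in OB, against 2802 and 912 in mESC. Fibroblast markers summed to 20665 to 26469 in OB and 36392 to 46998 in ODR, and 2 of 10 were called in each direction. All 4 tested epithelial markers of 5 were called higher in OB than in ODR, with sums of 71 to 198 and 5 to 9, and their sum in OA was 70 to 659. Neural markers summed to 2167 to 3206 in OB and 4639 to 5885 in ODR. Leukocyte markers (4 of 5 in the table) summed to 6 to 34 in OB, 42 to 84 in ODR and 50 to 89 in OA, and 1 of the 4 was called lower in OB than in ODR. From day 6 to day 14 in OB all 4 were called lower, from sums of 282 to 488. The part of these differences in the changes of the PRC1 genes was not tested.

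Before day 14 no difference between combinations passed the test in these genes. No member was called by limma in OB against ODR at day 1 (0.88% of all genes called in either direction) or at day 6 (10.5%). At an unadjusted p below 0.05 there was 1 member on each day, beside 1287 and 3267 of the 13860 genes tested. At day 1 that member was Cbx6, whose OB values of 442 and 397 lay below both ODR values (-0.40 ± 0.12, adjusted p = 0.19). It was called only without the library labelled OA day 14 replicate 2 (adjusted p = 0.0475). At day 6 that member was Pcgf2, whose OB values of 130 to 162 lay below both ODR values, 174 and 206. Its difference (-0.38 ± 0.18, adjusted p = 0.197) was opposite in sign to that at day 14. Counts were likewise 0 in OB against OA at day 1 (1.4% of all) and day 6 (7.28%). There, 0 members and 1 member had an unadjusted p below 0.05, beside 1563 and 2877 of all genes tested. In OA against ODR there were 0 calls at day 1 (0.0649%), day 6 (2.22%) and day 14 (5.35%). Without OA day 14 replicate 2 the day 14 count was again 0. An unadjusted p below 0.05 was found for 1 member on each of these days, beside 714, 1904 and 2674 of all genes tested. Phc1 read 232 and 205 in OB, 185 and 152 in ODR and 156 and 156 in OA at day 1, where the OB libraries lay above the rest. Its OB minus ODR difference was 0.38 ± 0.23 at day 1 (adjusted p = 0.716) and 0.28 ± 0.20 at day 6 (adjusted p = 0.437).

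Cbx6 and Bmi1 rose together between days 1 and 6 in every combination. Bmi1 read 279 and 229 in ODR, 202 and 214 in OA, and 209 and 234 in OB at day 1. At day 6 it read 504 and 456 in ODR, 428, 352 and 350 in OA, and 400, 418, 460 and 352 in OB. No day 6 library overlapped with a day 1 library of its combination. The rise of Bmi1 was 0.92 ± 0.16 in ODR (adjusted p = 0.000343), 0.85 ± 0.14 in OA (adjusted p = 0.000198) and 0.87 ± 0.14 in OB (adjusted p = 9.6e-05). That of Cbx6 was 0.83 ± 0.12 in ODR (adjusted p = 0.000124), 1.06 ± 0.11 in OA (adjusted p = 2.14e-06) and 1.03 ± 0.11 in OB (adjusted p = 1.48e-06). These 2 were the only members called, and both rose, where 12.6%, 17% and 16.7% of all genes tested were called higher in ODR, OA and OB. The summed proliferation markers were 4316 to 4898 at day 1 and 2605 to 3941 at day 6 over the 3 combinations, and summed leukocyte markers (4 of 5 in the table) were 510 to 587 and 204 to 492. Their part in the rise was not tested.

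From day 6 to day 14, ODR and OA showed 0 calls among the members (in OA also without replicate 2 of day 14), where 3.95% and 8.14% of all genes were called in either direction. In ODR 1 member and in OA 2 members had an unadjusted p below 0.05, beside 2501 and 3242 of the 13860 genes tested. Phc2 came nearest in ODR, rising from 680 and 718 to 951, 922 and 856 without overlap (0.38 ± 0.12, adjusted p = 0.089). Bmi1 stayed near its day 6 level in both, with differences of -0.15 ± 0.14 in ODR (adjusted p = 0.654) and 0.03 ± 0.13 in OA (adjusted p = 0.926).

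BMP4 had small effects on these genes at day 6. In OB, 2 of 9 members were called lower (17.5% of all genes were) and none higher. Cbx6 read 711 and 682 with BMP4 and 836, 902, 863 and 829 without, a fall of 0.30 ± 0.11 on the log2 scale (adjusted p = 0.0414). Phc1 read 166 and 154 with BMP4 and 237, 213, 229 and 257 without, a fall of 0.54 ± 0.20 on the log2 scale (adjusted p = 0.0434). In both genes the libraries with BMP4 were below all of those without. The call of Cbx6 was lost without any 1 of the 6 libraries compared (adjusted p 0.0105 to 0.217 over left-out libraries). It was also lost with no low-value filter, with rescaled libraries and in the fit of only the groups compared. The call of Phc1 was lost without any 1 of 9 libraries (0.0155 to 0.221) and with no low-value filter. Phc3 read 230 and 236 with BMP4 and 161 to 204 without, a difference of 0.37 ± 0.14 that missed the threshold (adjusted p = 0.0559). In the same libraries the fibroblast markers summed to 25487 to 26291 with BMP4 and 37521 to 40310 without, with 6 of 10 called lower and 2 higher. The proliferation markers summed to 5340 to 5818 and 2784 to 3941, with 4 of 6 called higher. The epithelial markers summed to 338 to 873 with BMP4 and 51 to 82 without, and all 4 tested were called higher. The neural markers summed to 3063 to 3659 and 6245 to 7997, with 3 of 6 called lower. Their part in these falls was not tested. In ODR, with a single BMP4 library, no member was called (11.5% of all genes were, and 1 member had an unadjusted p below 0.05). The test of the difference between the 2 BMP4 effects also called none, by limma (1.26% of all genes, and 0 members at an unadjusted p below 0.05). It was -0.18 ± 0.19 for Cbx6 (adjusted p = 0.838) and -0.26 ± 0.34 for Phc1 (adjusted p = 0.894), so BMP4 was not shown to act differently in OB and ODR.

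The difference between related subunits was also read within each library. Each pair sets a member called higher in OB than in ODR at day 14 against one called lower or, for Phc2, not called. The direction of the shift therefore follows from the results above and adds no support to them. The log2 value of Pcgf2 minus that of Bmi1 was -0.03 to 0.11 in the 3 OB day 14 libraries, -1.57 to -0.80 in ODR, and -1.08 to -0.59 in OA. It was -0.40 in MEF and 2.01 in mESC. Phc1 minus Phc2 was -0.97 to -0.56 in OB day 14, -1.96 to -1.82 in ODR and -2.20 to -1.70 in OA, with -1.47 in MEF and 2.70 in mESC. Cbx2 minus Cbx6 was -0.72 to -0.04 in OB day 14, -5.16 to -4.12 in ODR and -5.74 to -2.97 in OA, with -3.54 in MEF and -1.13 in mESC. Without the library labelled OA day 14 replicate 2, the OA range of Cbx2 minus Cbx6 was -4.74 to -2.97 and the other OA ranges were as given. In each pair the OB day 14 libraries lay above all other reprogramming libraries. Whether the values are scaled by gene length is not known. Only the shift between libraries can therefore be read, not which gene of a pair is the more abundant.

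**Figure D3:**
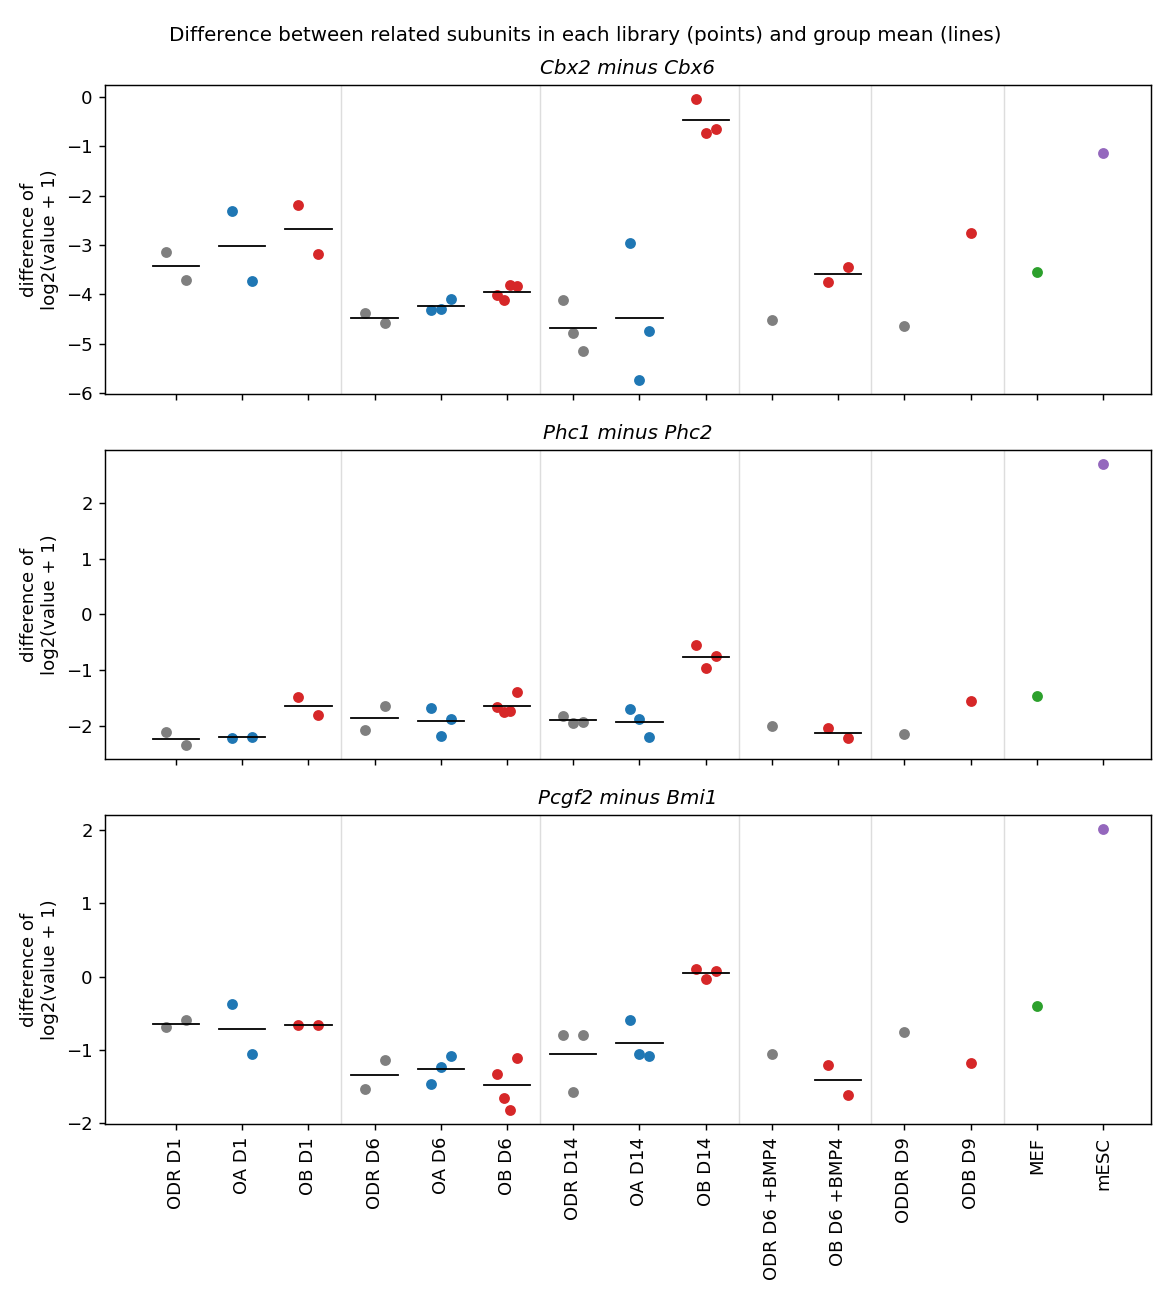
Difference of log2(value + 1) between related members (Cbx2 minus Cbx6, Phc1 minus Phc2, Pcgf2 minus Bmi1) in each library (points), with group means as lines and colours as in the plot of values. The OB libraries at day 14 lie at -0.72 to -0.04, -0.97 to -0.56 and -0.03 to 0.11, above all other reprogramming libraries in each panel.

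The stem cell and fibroblast libraries, 1 of each and so with no test, differed at least 2-fold in 8 of 9 members. Cbx7 was 429 in mESC and 12 in MEF, Phc1 1046 and 182, Cbx2 202 and 83, and Pcgf2 426 and 208. These 4 were higher in mESC, where 23.1% of all genes tested were at least 2-fold higher. Bmi1 was 105 in mESC and 274 in MEF, Phc2 160 and 506, Cbx6 444 and 974, and Cbx8 7 and 40. These 4 were lower in mESC, where 27.7% of all genes were at least 2-fold lower. Phc3 was 254 in mESC and 393 in MEF.

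Set side by side, the sign of the mESC minus MEF difference was that of the OB minus ODR difference at day 14 in 8 of 9 members, the exception being Cbx7. The 8 include Phc2 and Phc3, which were not called at day 14. The sign was the same in 62.2% of all genes tested, and nothing particular to the members is read from the count. The sizes were close in Cbx6, at -1.13 between mESC and MEF and -1.09 between OB and ODR, and differed more in the other members. Cbx6 in OB at day 14, at 486 to 569, lay between mESC and MEF. Cbx2 reached 345 to 472 in OB at day 14, above the mESC value, whereas Phc1 at 422 to 587 and Pcgf2 at 272 to 318 lay between MEF and mESC. Bmi1 in OB at day 14, at 278 to 294, was near the MEF value. Phc2 at 708 to 868 was above both single libraries, and Cbx7 at 20 to 26 was near MEF.

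**Figure D4:**
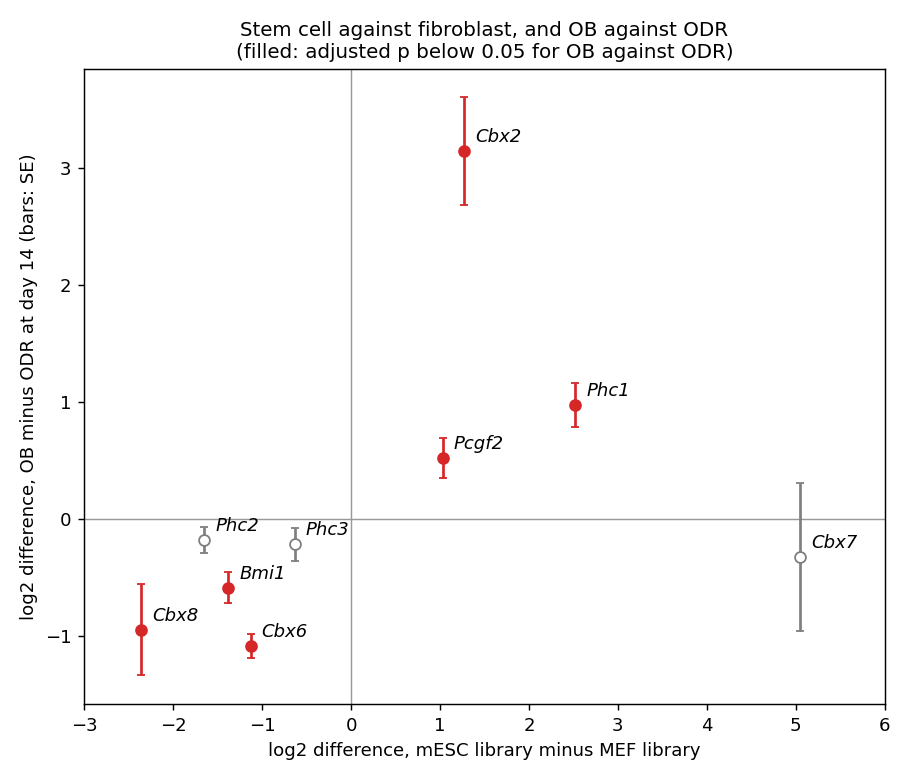
Log2 difference of each member between the mESC and MEF libraries (x axis) and between OB and ODR at day 14 (y axis, bars are SE), filled where the adjusted p for OB against ODR was below 0.05. Cbx2 is highest on the y axis at 3.14, and Cbx7 is farthest right at 5.05 with a y value of -0.33.

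At day 9, with 1 library per label, Cbx2 was 122 in ODB and 41 in ODDR, and Phc1 was 324 and 170. Cbx2 was the only member at least 2-fold higher in ODB, where 11.2% of all genes tested were. Phc1 was 0.93 higher on the log2 scale. Cbx6 was 831 in ODB and 1056 in ODDR, Bmi1 376 and 324, Pcgf2 165 and 191, and Cbx7 17 and 14. The library deposited under both BMP4 labels of day 9 had 44 for Cbx2 and 172 for Phc1.

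The other Polycomb genes were read from lists, beside the 28% of all genes that were called higher and the 26.7% called lower in OB against ODR at day 14. Of 5 other core and canonical PRC1 genes, 1 was called higher and 2 lower in this comparison. Rnf2, the RING subunit best known in stem cells, differed by 0.55 ± 0.18 (adjusted p = 0.0148) and Scmh1, a SAM domain partner, by -0.83 ± 0.11 (adjusted p = 7.94e-06). Ring1, the other RING gene, read 75.0 ± 14.7 in OB and 67.7 ± 7.09 in ODR (SD, n = 3 each). Of 16 variant PRC1 genes, 8 were called higher and 1 lower, among them Pcgf6 at 1.53 ± 0.18 (adjusted p = 1.8e-06) and Bcor, a partner of Kdm2b, at 1.39 ± 0.16 (adjusted p = 1.66e-06). Kdm2b itself, at 4.25 ± 0.23 (adjusted p = 1.1e-09), is one of the 8, and this gene was at the ceiling in earlier OB libraries. Auts2 was the 1 that fell.

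Of 12 PRC2 genes, 8 were called higher and 3 lower. The largest were E130012A19Rik (Epop), a PRC2 accessory gene, at 4.91 ± 0.43 (adjusted p = 6.28e-08), Jarid2 at 2.75 ± 0.19 (adjusted p = 7.68e-09) and the methyltransferase gene Ezh2 at 2.22 ± 0.16 (adjusted p = 1.24e-08). Its paralogue Ezh1, with Phf1 and Phf19, fell. Of 5 deubiquitinase genes for the PRC1 mark, Asxl1 and Bap1 were called higher, at 0.57 ± 0.12 (adjusted p = 0.000552) and 0.46 ± 0.08 (adjusted p = 0.000144). Mysm1 was lower, at -0.80 ± 0.11 (adjusted p = 6.73e-06). The 3 chromobox genes of the HP1 family, Cbx1, Cbx3 and Cbx5, were all higher, by 1.67 ± 0.20, 1.31 ± 0.22 and 1.84 ± 0.14 (adjusted p = 2.11e-06, 5.23e-05 and 1.69e-08). Of the Ink4 locus, the classical target of Bmi1, Cdkn2a fell by 1.54 ± 0.30 and Cdkn2b fell by 0.72 ± 0.19 on the log2 scale (adjusted p = 0.000322 and 0.00393), in the same libraries in which Bmi1 fell. The median difference was 0.13 over the core list, 0.47 over variant PRC1 and 0.97 over PRC2, against 0.01 over all genes. In OA against ODR at day 14, limma called 0 of the 43 genes of these 6 lists, where 5.35% of all genes tested were called. At an unadjusted p below 0.05 there were 10 of the 43, beside 2674 of the 13860 genes tested. Both list counts include the library labelled OA day 14 replicate 2.

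Across the 27 libraries, the closest pair of members on the log2 scale was Cbx6 and Bmi1, with a Pearson r of 0.88, followed by Cbx2 and Phc1 with 0.83, Phc1 and Pcgf2 with 0.77 and Cbx2 and Pcgf2 with 0.66. Cbx2 and Cbx6 had the lowest value, -0.43. These are descriptions without a test, since the libraries share groups and days. Among 9524 genes with a mean of at least 50, those most like Cbx2 were Lmnb1, Supt16 and Nasp (r = 0.95, 0.94 and 0.94), and those most like Phc1 were Hdac2, Ncoa5 and Vezf1 (0.96, 0.93 and 0.93). Pcgf2 was most like Ednra, Pdk1 and Fads1 (0.89, 0.89 and 0.88). Cbx6 was most like Pink1 and Vamp2 (0.96 and 0.95) and Bmi1 most like Pcmtd1, Sybu and Xiap (0.93, 0.92 and 0.90). For Cbx7, Cbx8, Phc2 and Phc3 the nearest genes were Uhrf1bp1, Leng1, Rgs5 and Ctdsp2, with r of 0.71, 0.70, 0.77 and 0.67.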

How the data were processed

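Poly-A selected RNA of 35 mouse libraries was sequenced. Per the submitters' processing notes, bcl2fastq, Bowtie2 2.2.5 and RSEM were used with genome build mm10, and the sources used here do not give the normalization. The deposited values are whole-number normalized tag counts with near-equal totals (4255921 to 4398785) and a common ceiling of 18690. They are treated as a score of the authors, not as counts, which leaves the sequencing depth unknown and allows no counting interval. No member reached the ceiling or 0.

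Values were taken as log2(value + 1). A gene was tested if at least 2 libraries had a value of 10 or more. A linear model with 11 group means was fitted with limma 3.58.1 (R 4.3.3) to 27 libraries (16 residual degrees of freedom), with moderated two-sided tests, Benjamini-Hochberg adjustment over all 13860 genes and no block. There were 17 comparisons of 2 groups and 3 tests of a difference between effects. For a group of 1 library, the model borrows the spread of the other groups. The shared library of day 6 was left out. mESC, MEF and the day 9 libraries entered no test. The script was tested on simulated data.

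The members, gene lists and tests were chosen with earlier results of these data known, and the 3 promoter motifs after the data were seen. Named genes are the 9 members, the factor genes Pou5f1, Kdm2b and Kdm2a, up to 3 genes a Polycomb list by adjusted p in OB against ODR at day 14, and for each member the 3 genes of highest Pearson r, predicted genes left out. Some genes that this rule names are not reported here. Other genes named (Ring1, Auts2, Ezh1, Phf1, Phf19, Npcd and single markers) were chosen after their values were seen. Positions are from GENCODE M21. Alternatives were a pseudocount of 10, no filter, limma's trend and robust options, rescaled libraries, other uses of the shared library, a fit of only the groups compared, a replicate block, and each library left out in turn.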

Additional observations from a re-analysis of the deposited data

Results flagged for a closer look

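The changes from day 6 to day 14 differed between combinations, by a test of the difference itself, for 5 members. In OB minus ODR the difference was 2.79 for Cbx2, 0.90 for Pcgf2 and -0.89 for Cbx6 on the log2(value + 1) scale. In OB minus OA it was 2.79 for Cbx2, 0.83 for Phc1, 0.65 for Pcgf2, -0.95 for Cbx6 and -0.52 for Bmi1. Only Cbx2 and Cbx6 kept their calls in all 36 alternatives. Pcgf2 against ODR lost its call without ODR day 6 replicate 2 (adjusted p = 0.0509). Against OA, Pcgf2 lost it without any of 8 libraries, Bmi1 without any of 5 and Phc1 without any of 3. Cbx2 was low in all combinations at day 6 (38 to 60) and Cbx6 high (829 to 1018), and the rise of Cbx2 and the fall of Cbx6 were measured in OB after that day. In OB at day 6, the only group of 4 libraries, no library of a member stood apart from the others. Smaller groups were not checked in this way. Some of their libraries lay far from the rest, such as Cbx8 in OB at day 14 (34, 8 and 10) and Cbx2 in OA at day 14 (122, 23 and 36).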

How the results depend on the processing

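The 33 calls of a member in a comparison gave 1188 values under the alternatives. Of these, 1115 kept direction and call, 73 lost the call and 0 reversed. In OB against ODR and OA at day 14, Cbx2, Phc1, Cbx6 and Bmi1 were called under all of the alternatives run. Counts of called members that moved by over 1.5 times were as follows. In OB with BMP4 the count of 2 became 0 with no low-value filter and 1 in a fit of only the groups compared, and was 0 to 3 with 1 library left out. In ODR from day 6 to day 14 the count of 0 became 1 (Phc2) when the shared library was kept as ODR without BMP4, and was 0 to 1 with 1 library left out. Leaving out 1 library gave 0 to 1 in OB against ODR at day 1 (Cbx6, without OA day 14 replicate 2) and 0 to 1 in OA against ODR at day 14 (Phc2, without OA day 14 replicate 1). It gave 2 to 5 for the change after day 6 in OB minus OA, with the 2 reached without OA day 14 replicate 3. Of differences that were not called, Pcgf2 in OA from day 1 to day 6 (0.303) ranged from -0.001 to 0.607 and Cbx8 in OB from day 6 to day 14 (-0.348) from -0.953 to 0.027. The cause was not tested.

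The labels do not say that equal replicate numbers share a batch, and same-numbered libraries did not deviate together in every comparison (correlations of -0.16 to 0.32, with no comparison of 3 pairs in which all were over 0.1). With the replicate number as a replicate block the members called were 6 in OB against ODR at day 14, 5 in OB against OA and 7 in OB from day 6 to day 14, where Cbx7 was added. No count moved by over 1.5 times under the block. The values are not counts, so what depth limits is unknown.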
